A study of Mus musculus with 13 samples.

Results

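Genes of the interferon response were followed through differentiation of female mouse embryonic stem cells (mESCs). The genes were Isg15, Ifit1, Ifit3, Irf7, Bst2, Rsad2, Ifih1, Ddx58 and Oasl2, taken by symbol, which is 9 of the 25965 genes in the expression table. Of these, 7 passed the filter on low values used for testing (a mean log2 CPM of at least 0 on days 4 to 7), as did 13406 of all genes. Ifit3 and Irf7 did not pass, and are given as reads. CPM is the number of reads of a gene scaled to the mapped reads of its library, and levels of different genes are compared only per kilobase of exon.

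The cells were F1 mESC lines from FVB/NJ dams and CAST/EiJ sires, grown in 2i medium and moved into serum medium (DME HiHi), in which they differentiate without a directing factor. Day0 was 1 library of undifferentiated cells without virus. The other 12 libraries came from cells transduced on day 2 with a virus carrying a hairpin RNA, selected with puromycin from day 3 and harvested on day 4, 5, 6 or 7. The nonsilencing control hairpin (Nons), Smarcc1.6 and Smarcc1.7 gave 1 library each per day, the last 2 being hairpins against Smarcc1, a core subunit of the BAF chromatin remodelling complex. All 3 groups therefore carried virus, hairpin and selection. Differentiation without virus was not among the libraries analysed here, so the effect of the days and that of the transduction cannot be told apart. Libraries of a group differ in day, and separate cultures are not stated, so p-values measure the spread between these libraries only.

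Cells sense viral RNA with receptors such as RIG-I and MDA5, which lead to production of type I interferon. Interferon binds its receptor on the same or neighbouring cells, which then leads to the induction of a large set of antiviral genes through a DNA element called the ISRE. Pluripotent stem cells are known for a weak interferon response that builds up as they differentiate.

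Depth ran from 13993440 to 63548092 mapped reads. In Day0 and the 3 libraries of day 6, 85.3% to 86.5% of reads were assigned to genes, against 91.6% to 92.6% in the other 9. Ribosomal protein genes (Rpl and Rps) took 1.78% to 2.21% of reads in these 4, against 4.34% to 7.01% in the other 9. Steps into and out of day 6, trends per day and ratios of days 4, 5 and 7 to Day0 cross these sets. Values of the 4 libraries are set apart below for some results only. Smarcc1 itself was lower than in Nons with Smarcc1.6 (log2 change -1.19 ± 0.15, SE, limma adjusted p = 0.00198) and with Smarcc1.7 (-0.93 ± 0.15, adjusted p = 0.0187). The summed level of 8 pluripotency markers was 4612 CPM at Day0 and 1560 to 1992 CPM on day 7. That of 9 differentiation markers was 23.6 and 278 to 387 CPM. Tdgf1, however, was at a log2 CPM of 8.17 at Day0 and 9.17, 9.29 and 8.86 on day 7 in Nons, Smarcc1.6 and Smarcc1.7. Pax6 was lower on day 7 (3.77, then 2.55, 3.01 and 2.64), and Mixl1 lay on both sides (0.05, then 5.05, 2.31 and -1.14). On day 4 the pluripotency sum ran from 2076 to 3235 CPM, and each of its markers was higher with both hairpins than in Nons. Nanog was then at 6.43 in Nons, 8.79 with Smarcc1.6 and 8.18 with Smarcc1.7. Of other cells, 8 fibroblast markers summed to 16.5 CPM at Day0 and 110 to 197 CPM on day 7, and 7 endothelial markers to 235 and at most 19.2 CPM. The members of these sums differed. Pecam1 was at a log2 CPM of 7.81 at Day0 and 1.22, 3.39 and 3.23 on day 7 in Nons, Smarcc1.6 and Smarcc1.7. Tek and Cldn5 were lower on day 7 as well. Higher were Cdh5 (-0.78, then 0.11, 0.74 and 0.78) and Kdr (-1.48, then 3.80, 0.57 and -0.71). Col1a1 rose from 2.44 to 6.28, 6.96 and 6.81, while Thy1, at 1.59 and then 1.18, 2.43 and 2.74, lay on both sides. The sum of 8 immune markers was 14.1 and 22.2 to 34.4 CPM, and its members differed. Ptprc, Lyz2 and Emr1 had at most 5 reads in any library. Aif1 had 0 reads at Day0, and its log2 CPM on day 7 was 0.81, 0.06 and 0.09 in Nons, Smarcc1.6 and Smarcc1.7. Csf1r was at a log2 CPM of 2.99 at Day0 and 3.64, 4.07 and 3.97 on day 7, and Cd68 at 2.35 and 2.94, 3.18 and 4.07. Itgam went the other way, from 10 reads at Day0 to 0, 2 and 4 on day 7. Cd14, at a log2 CPM of -0.67 and then -1.43, -1.07 and -0.50, lay on both sides of its Day0 value. The part of these shifts in the results below was not tested. In bulk RNA, more cells expressing a gene and more RNA per cell cannot be told apart.

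The promoters are shown because the ISRE is the element that this group of genes is known to share. The ISRE core, spelled GAAA, any 2 bases and GAAA, was searched on both strands of RefSeq promoter windows (GRCm38.p6, 250 bases before to 50 after the start), and all 9 genes had 1 window each. It was found in 7 of the 9 windows, in 27.3% of the 99 windows of the pathway genes described below, and in 3.44% of all 32851 windows. Below, matches before the start are in capitals, and each stretch is written along the strand of its gene.
Isg15: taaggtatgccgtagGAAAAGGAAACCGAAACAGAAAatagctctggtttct
Ifit1: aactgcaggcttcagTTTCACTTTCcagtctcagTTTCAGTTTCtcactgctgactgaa
Ifit3: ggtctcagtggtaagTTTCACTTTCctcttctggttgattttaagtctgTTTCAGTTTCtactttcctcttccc
Bst2: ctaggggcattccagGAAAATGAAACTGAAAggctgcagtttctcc
Rsad2: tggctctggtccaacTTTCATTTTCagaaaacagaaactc
The stretches lie at chr4:156200860-156200911 (Isg15, minus strand), chr19:34640770-34640828 (Ifit1, plus), chr19:34583358-34583431 (Ifit3, plus), chr8:71537572-71537617 (Bst2, minus) and chr12:26456548-26456587 (Rsad2, minus).

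Isg15 held 3 overlapping cores, from 78 to 57 bases before the start. Ifit1 and Ifit3 held 2 each on the other strand, and Bst2 held 2 overlapping cores from 130 to 115 bases before the start. Rsad2 held 1, from 120 to 111 bases before the start. In Ifih1 and Ddx58 the match lay after the start, at bases 33 to 42 and 3 to 12. Oasl2 and Irf7 had no match to these letters in this window. The GAS motif TTCNNNGAA, known from genes induced by interferon gamma, occurred in 1 of the 9 windows, that of Bst2, where it overlapped the first core, and in 8.3% of all windows. A match is a description of the sequence only.

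The first question was how the genes stood before and after differentiation began. In all 12 libraries of days 4 to 7, 4 of the 9 genes (Isg15, Ifit1, Ifih1 and Oasl2) were at least 1 log2 unit above Day0, where 7.79% of all tested genes were. For Ifit1 this rested on the 0.9 reads written for its 0 reads at Day0. With Day0 counts under 3 reads set to 3, an alternative added after the data were seen, Ifit1 dropped out and 3 of the 9 remained (7.42% of all). The lowest library of Ifit1, Smarcc1.6 on day 4, was then 1.64-fold higher than Day0. On the log2(CPM + 1) scale 2 of the 9 remained, Isg15 and Oasl2 (3.74% of all). No gene of the group was that far below Day0 in all 12. Day0 was 1 library, so these are values without a test. Day 6 alone shares the share of assigned reads with Day0. There, 6 of the 9 genes were at least 1 unit above Day0 in all 3 libraries, Irf7 and Bst2 being added. Of all tested genes 17.3% were. Irf7 rested on 1 read at Day0 and did not pass the filter, unlike the genes behind this share. In Nons it had 8 reads on day 6, a ratio to Day0 of 5.06 (exact counting interval 0.679 to 225). With Day0 set to 3 reads, a log2 CPM of -2.89, Irf7 in that library, at -2.14, was less than 1 unit higher.

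Oasl2 (2'-5' oligoadenylate synthetase-like 2, chromosome 5, 114896936 to 114912234 in mm10) makes a protein of the antiviral oligoadenylate synthetase family and was all but undetected at Day0. It had 1 read at Day0 and between 196 and 1502 reads in the later libraries. Its log2 CPM was -4.48 at Day0. On days 4, 5, 6 and 7 it was 3.71, 5.02, 3.52 and 4.90 in Nons, 1.62, 4.35, 4.63 and 3.95 with Smarcc1.6, and 2.62, 4.80, 4.69 and 4.04 with Smarcc1.7. The values of days 5 to 7 lay between 3.52 and 5.02, and Smarcc1.6 on day 4 was the lowest of the 12 libraries. The smallest ratio to Day0 was 68.7 (95% exact counting interval 12.2 to 2729), with Smarcc1.6 on day 4. Intervals cover counting error only, since reads carried no molecular identifiers.

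Isg15 (chromosome 4, 156199424 to 156200818) encodes a ubiquitin-like protein that is attached to other proteins after interferon. It had 0 reads at Day0, which allows up to 3 reads. In Nons it had 99, 245, 337 and 2426 reads on days 4 to 7, a log2 CPM of 0.73, 2.40, 3.26 and 6.35. With Smarcc1.6 the log2 CPM was 0.22, 1.12, 2.92 and 4.24, and for Smarcc1.7 it stood at 0.73, 1.48, 3.32 and 3.86. The level was higher on each day than on the day before in all 3 groups. Against 3 reads at Day0, the day 7 level was 608-fold higher in Nons, 140-fold with Smarcc1.6 and 108-fold with Smarcc1.7, with counting error left out.

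Ifit1 (chromosome 19, 34640871 to 34650009) encodes a protein that binds foreign RNA and blocks its translation. It also had 0 reads at Day0. Its log2 CPM on days 4 to 7 was -0.61, -0.11, -0.68 and 4.20 in Nons, -2.18, -0.60, 0.27 and 1.66 with Smarcc1.6, and -1.12, 0.44, -0.04 and 2.47 with Smarcc1.7. It stayed at 14 to 45 reads on days 4 to 6 and reached 547, 186 and 282 reads on day 7. The Nons library of day 7 was the highest of the 13.

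Ifih1 (chromosome 2, 62595798 to 62646255) encodes MDA5, a sensor of long double-stranded RNA. It had 2 reads at Day0, and its log2 CPM was -3.48. On days 4 to 7 this was -0.94, 0.71, 0.18 and 3.04 in Nons, -1.60, -0.28, 0.93 and 1.53 with Smarcc1.6, and -1.12, 0.72, 0.68 and 1.03 with Smarcc1.7. Nons was again highest on day 7, with 244 reads, a ratio to Day0 of 91.7 (counting interval 25.1 to 761).

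Ddx58 (chromosome 4, 40203773 to 40239828) encodes RIG-I, a sensor of RNA with a 5' triphosphate. It was already expressed at Day0, at a log2 CPM of 2.59. On days 4 to 7 it was 5.24, 4.88, 2.90 and 4.96 in Nons, 5.26, 5.24, 3.75 and 3.81 with Smarcc1.6, and 5.33, 5.17, 3.52 and 4.27 with Smarcc1.7. Day 4 or day 5 was highest in all 3 groups, day 7 was above day 5 in Nons only, and day 6 was lower than days 5 and 7 in all 3 groups. Only 7.33% of tested genes dipped on day 6 in this way, and Ddx58 was the one gene of the 9 to do so. The low values fell in Day0 and day 6, the 4 libraries with fewer reads assigned to genes. Whether that share bears on Ddx58 was not tested.

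Bst2 (chromosome 8, 71534264 to 71537437) encodes tetherin, which holds budding virus on the cell surface. It was expressed at Day0, at a log2 CPM of 4.21. On days 4 to 7 it was 5.31, 5.79, 6.20 and 6.97 in Nons, 5.15, 5.74, 6.69 and 6.94 with Smarcc1.6, and 5.09, 5.66, 7.04 and 7.31 with Smarcc1.7. It was higher on each day than on the day before in every group, as Isg15 was, with smaller steps. For both genes the steps into and out of day 6 cross sets of libraries with different shares of assigned reads.

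Rsad2 (chromosome 12, 26442753 to 26456452) encodes viperin, an antiviral enzyme. It was at a log2 CPM of 0.84 at Day0. On days 4 to 7 it was 2.33, 0.99, 0.88 and 2.75 in Nons, 0.71, 0.40, 0.78 and 1.80 with Smarcc1.6, and 1.76, 1.32, -0.18 and 2.39 with Smarcc1.7. Its later values lay on both sides of the Day0 value and followed no single direction over the days.

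Irf7 (chromosome 7, 141262706 to 141266481) encodes the factor that amplifies type I interferon production. It had 1 read at Day0, and 5, 6, 8 and 58 reads in Nons. With Smarcc1.6 it had 14, 4, 11 and 26 reads, and with Smarcc1.7 it had 5, 1, 14 and 19. The Nons library of day 7 stood above the rest at 1.96 CPM, and no other library exceeded 0.443 CPM. Its exons share 45 bases with Phrf1 on the opposite strand, and whether counting used strand is not given in the sources used here.

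Ifit3 (chromosome 19, 34583531 to 34588731), a partner of Ifit1, had at most 1 read in Day0 and on days 4 to 6. On day 7 it had 26 reads in Nons, 17 with Smarcc1.6 and 108 with Smarcc1.7. Its near-identical neighbour Ifit3b, listed under an older symbol, had 0 reads in every library before day 7 and then 19, 5 and 19. Reads could be split between the 2 copies, so the values of Ifit3 are uncertain.

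**Figure D1:**
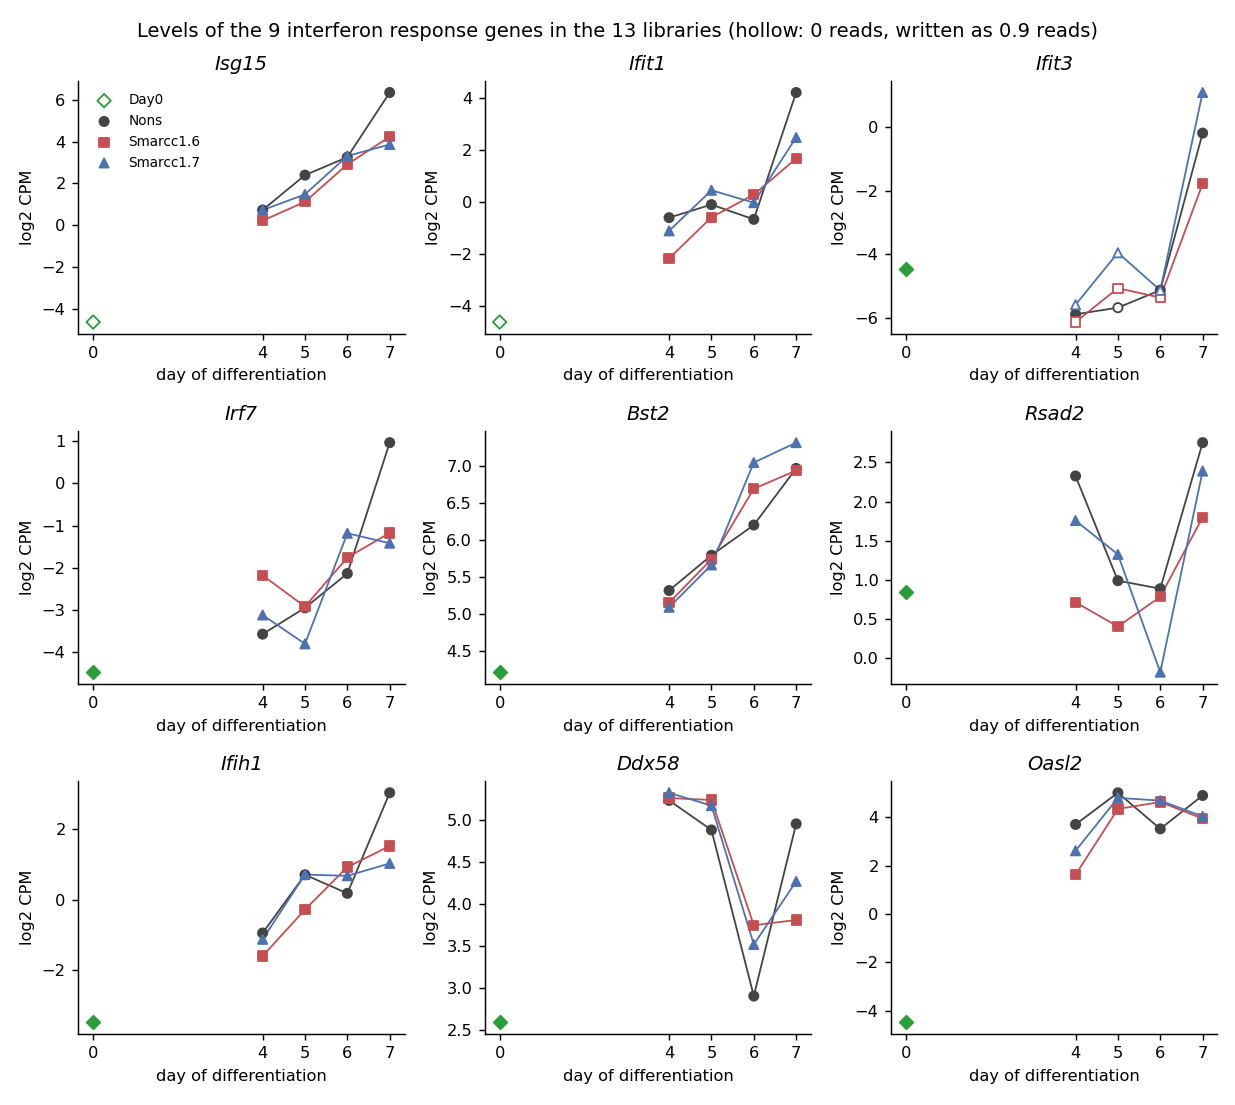
Log2 CPM (vertical axes, a different range in each panel) against day of differentiation for the 9 genes. Points are single libraries, lines join the libraries of a group, and hollow points are libraries with 0 reads, which the authors wrote as 0.9 reads. Isg15 and Bst2 are higher on each day than on the day before in all 3 groups, Ddx58 dips on day 6, and the Nons library of day 7 is the highest for Isg15, Ifit1, Irf7, Rsad2 and Ifih1.

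Per kilobase of exon, the genes spanned a wide range. In the Nons library of day 4, Bst2 stood at 44.0 CPM per kb, Ddx58 at 5.34, Isg15 at 2.20, Oasl2 at 2.05, Rsad2 at 1.16, Ifit1 at 0.246, Ifih1 at 0.0637 and Irf7 at 0.0222. By day 7 the order in Nons had changed, and Isg15 was next to Bst2. Bst2 was then at 138 CPM per kb, Isg15 at 108, Ifit1 at 6.94, Oasl2 at 4.70, Ddx58 at 4.40, Rsad2 at 1.56 and Ifih1 at 1.01. With 1 library per group and day, neighbours in these orders cannot be compared by their spread.

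The gain over the days was tested between day 7 and day 4, whose libraries all had 91.6% to 92.6% of reads assigned to genes, with group in the fit. Isg15, Ifit1, Ifih1, Bst2 and Oasl2 rose, Ddx58 fell and Rsad2 did not pass the test. These are 5 higher and 1 lower of 7, where 40.7% of all tested genes were higher and 31.7% lower, 72.5% in all. Ifit1 and Ifih1 had a mean log2 CPM under 0 on days 4 to 6 and so passed the filter through day 7 itself, as 1.52% of all tested genes did, and their part in this count is no independent evidence of a rise. Without the filter, 7 of the 9 genes were higher on day 7, now with Ifit3 and Irf7, and 1 lower, where 25.1% and 21.9% of all 25965 genes were. Ifit3 had at most 1 read on day 4 in each group, so its fitted change depends on the 0.9 reads written for 0.

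Isg15 rose by 4.26 ± 0.40 (log2, SE; limma with Benjamini-Hochberg adjustment, adjusted p = 3.51e-06), and Ifit1 rose by 4.09 ± 0.55 (adjusted p = 5.10e-05). Ifih1 rose by 3.09 ± 0.46 (adjusted p = 0.00012). Without the filter the changes were the same and the adjusted p was 8.55e-06 for Ifit1 and 3.76e-05 for Ifih1. Bst2 rose by 1.89 ± 0.17 (adjusted p = 2.62e-06) and Oasl2 by 1.65 ± 0.44 (adjusted p = 0.00588). The change was higher on day 7 in 3 of 3 groups for each of the 5 genes. Ddx58 fell by 0.93 (change -0.93 ± 0.28, adjusted p = 0.0104), lower in 3 of 3 groups. Its call rested on the Smarcc1.6 library of day 7, without which the change was -0.58 with an adjusted p of 0.0617. Rsad2 changed by 0.72 ± 0.36 (adjusted p = 0.0985), and with the same change its adjusted p was 0.0328 without day 6, 0.0456 without the Smarcc1.6 library of day 6 and 0.0493 without the Smarcc1.7 library of day 6. On the log2(CPM + 1) scale the changes of Ifit1 and Ifih1 were smaller, 2.50 and 1.74, and still passed.

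As a straight trend over the 4 days, Isg15 rose by 1.43 ± 0.13 per day, Ifit1 by 1.22 ± 0.25, Ifih1 by 0.95 ± 0.16 and Bst2 by 0.66 ± 0.06 (log2, SE; limma adjusted p of at most 0.00144). These are 4 of 7, where 34.9% of all tested genes had a rising trend. Ifit1 and Ifih1 passed the filter through day 7, so their part in this count is no independent evidence of a rise. Without the filter, 6 of the 9 genes had a rising trend, Ifit3 and Irf7 being added, and 1 a falling one. Of all 25965 genes, 20.9% and 17.9% did. Ddx58 changed by -0.45 ± 0.18 per day (adjusted p = 0.0448), the 1 falling trend of 7, where 25.6% of all tested genes had one and 60.5% had a trend in either direction. Its call was lost in 13 of 24 alternatives. Oasl2, at 0.45 ± 0.22 per day, did not pass (adjusted p = 0.099), and neither did Rsad2, at 0.17 ± 0.22 (adjusted p = 0.509). Without day 7 the trend of Ifit1 was 0.58 per day with an adjusted p of 0.0954, so its trend rested on that day. Without day 4 the trend of Ifih1 was 0.74 per day with an adjusted p of 0.0584.

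**Figure D2:**
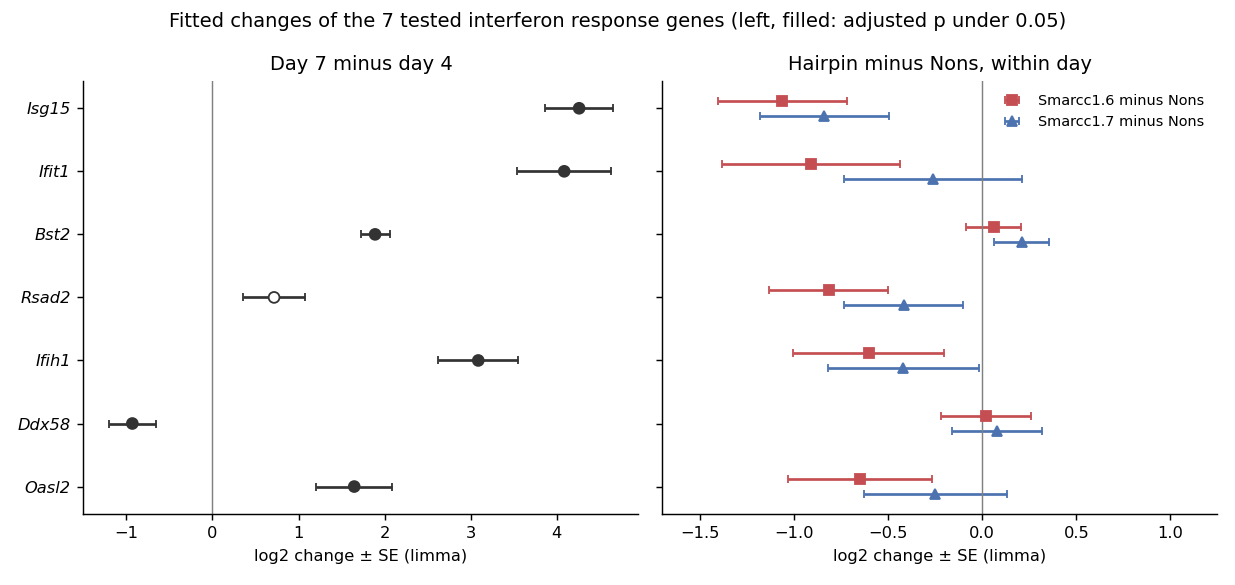
Fitted log2 changes with their SE (horizontal axes) for the 7 tested genes, day 7 minus day 4 on the left and hairpin minus Nons on the right. On the left, filled points passed an adjusted p of 0.05, which Rsad2 at 0.72 did not. On the right no gene passed, and Isg15 lay furthest below 0 for both hairpins, at -1.06 and -0.84.

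The other genes of the pathway, 103 by list and 79 tested, give the setting. Between days 4 and 7, 52 of the 79 rose and 12 fell, with a median change of 1.07, beside the 40.7% and 31.7% of all tested genes that did. Antigen presentation genes, whose products cut and load peptides onto MHC class I, rose in 9 of 9, and Psmb8, an immunoproteasome subunit, rose by 5.06 ± 0.42 (adjusted p = 1.56e-06). Of the receptors and kinases 6 of 8 rose and 0 fell. Of the transcription factors 9 of 10 rose, among them Irf2, by 4.37 ± 0.61 (adjusted p = 7.30e-05), and Irf5 was the 1 that fell. Of the induced effectors 20 of 37 rose and 8 fell, and of the inhibitors 3 of 5 rose and 1 fell, shares nearer to those of all genes. The largest rise was that of Rtp4, a chaperone of receptors, by 5.17 ± 0.45 (adjusted p = 2.24e-06). The largest falls were those of Samd9l (change -4.41 ± 0.54, adjusted p = 2.54e-05) and, among sensors and adaptors, of the DNA sensor cGAS, listed as E330016A19Rik (change -3.02 ± 0.37, adjusted p = 2.67e-05), while Pml changed by -1.78 ± 0.08 (adjusted p = 3.69e-08). Sensors and adaptors rose in 5 of 10 and fell in 2, also near the shares of all genes. Rtp4 and Irf2, like Ifit1 and Ifih1, passed the filter through day 7. Oas1a, Ifitm2 and H2-K1 belong to families of close copies, and their counts are uncertain. For the trend per day, the list had 45 higher and 9 lower of 79 (34.9% and 25.6% of all tested genes), Oas1a being the third largest fall at -0.61 ± 0.17 (adjusted p = 0.00872).

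The ligands were near the limit of detection. Ifnb1 had 0 reads in all 13 libraries, with 3 reads in each taken as the limit. Of 12 interferon alpha rows in the table, Ifna4 was the one with a count above 5, with 18 reads in the Nons library of day 7, 6 reads with Smarcc1.6 and 1 with Smarcc1.7 on that day, and 0 to 4 in all others. The other 11 together had 0 to 5 reads per library. Ifng had at most 1 read. The gene family is made of close copies, so reads of Ifna4 are uncertain too.

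**Figure D3:**
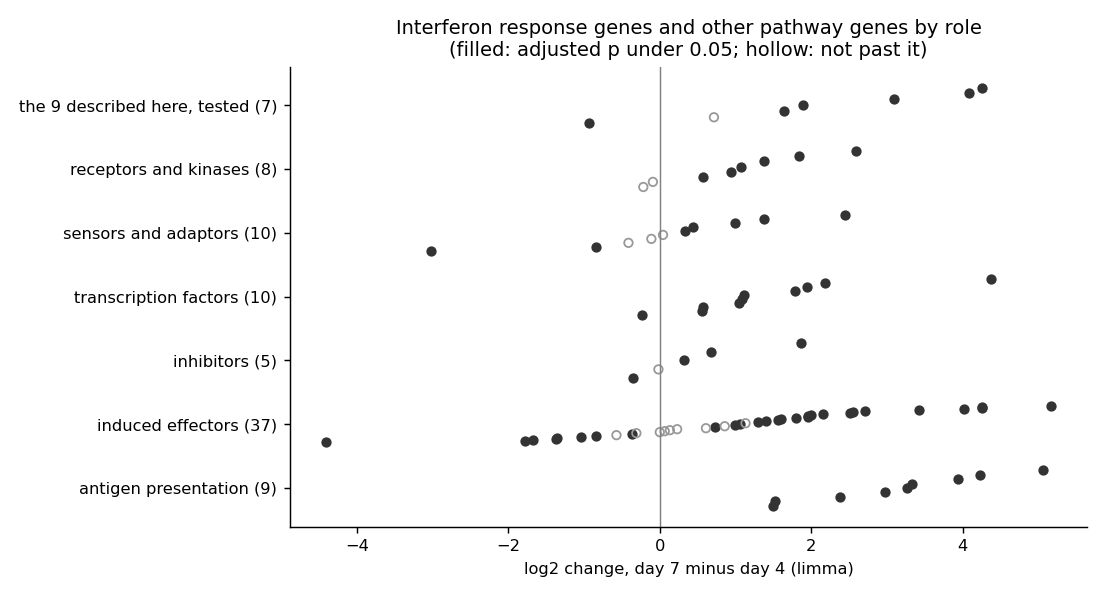
Log2 change between day 4 and day 7 (horizontal axis) for the 7 tested interferon response genes and 79 tested pathway genes, grouped by role with the number in brackets. Filled points passed an adjusted p of 0.05. All 9 antigen presentation genes lie to the right of 0, while sensors and effectors lie on both sides.

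The second question was whether the gain differed when Smarcc1 was depleted. Over the 4 days together, with day in the fit, 0 of 7 genes differed between knockdown and Nons at an adjusted p under 0.05 (limma), while 11.6% of all tested genes did, and 2 of 7 had an unadjusted p under 0.05, as did 28.1% of all. The change of Isg15 was -0.95 ± 0.29 (adjusted p = 0.0542), that of Rsad2 -0.62 ± 0.28 (0.175), that of Ifit1 -0.59 ± 0.42 (0.402), that of Ifih1 -0.51 ± 0.33 (0.351) and that of Oasl2 -0.45 ± 0.33 (0.412). Bst2 and Ddx58 were at 0.13 ± 0.13 and 0.05 ± 0.20. The median over the 7 was -0.51, against -0.01 over all tested genes. Isg15 lay at the edge of the threshold, and leaving out the Nons library of day 4 gave -1.18 with an adjusted p of 0.0276. Leaving out the Nons library of day 6 gave -1.22 for Isg15 (adjusted p = 0.048) and -0.98 for Oasl2 (adjusted p = 0.0422). Without the Smarcc1.7 library of day 4 Isg15 was at -1.05 (adjusted p = 0.0467). Other omissions made the changes smaller. With 1 library left out, Isg15 ran from -1.22 to -0.50, Ifit1 from -1.05 to -0.07 and Ifih1 from -0.89 to -0.10. For Isg15 the mean of the hairpins minus Nons was -0.26, -1.10 and -0.14 on days 4 to 6. On day 7 it was -2.30, so the average leaned on day 7.

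Taken singly, Smarcc1.6 differed from Nons in 0 of 7 genes (2 at an unadjusted p under 0.05, as were 25.1% of all), where 9.3% of all tested genes differed, 5.59% being higher. Isg15 was at -1.06 ± 0.34 (limma adjusted p = 0.0805) and Rsad2 at -0.82 ± 0.32 (0.138). Isg15 passed without the Nons library of day 4 (-1.29, adjusted p = 0.0384) and without the Smarcc1.7 library of day 7 (0.0457), and Oasl2 without the Nons library of day 6 (-1.18, 0.0246). With 1 library left out, Isg15 ran from -1.33 to -0.61 and Oasl2 from -1.18 to -0.27. Smarcc1.7 also differed in 0 of 7 (1 at an unadjusted p under 0.05, as were 21.2% of all), against 2.45% of all genes, 1.69% higher and 0.768% lower, with Isg15 at -0.84 ± 0.34 (0.195). Both comparisons share the 4 Nons libraries. Between the hairpins themselves 0 of 7 genes differed (0 at an unadjusted p under 0.05), as did 0 of all tested genes, and the largest difference was that of Ifit1, 0.65 ± 0.47 higher with Smarcc1.7.

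The averages over days hide an order that changed with the day. Nons lay above both hairpins for 6 of the 7 tested genes on day 4, where 41.3% of all tested genes did, and for 3 of 7 on day 5, where 44.1% did. Nons lay below both hairpins for 1 gene of 7, Ddx58, on day 4 and again on day 5 (41.9% and 35.2% of all). On day 6 Nons lay above both hairpins for 1 of 7 (43.7% of all) and below both for 5 of 7 (36.3% of all). On day 7 Nons was above both for 6 of 7 (32.5% of all) and below both for 0 of 7 (36.7% of all). The exception on day 7 was Bst2. Ifit1 and Ifih1, 2 of the 6 genes above both on day 7, passed the filter through day 7. Their place in that count is no independent evidence.

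The differences on day 7 were the widest of the 4 days for Isg15, Ifit1, Ifih1 and Ddx58. Isg15 was at 23.1% of the Nons level with Smarcc1.6 and at 17.8% with Smarcc1.7. Ifit1 was at 17.2% and 30.1%, Ifih1 at 35.0% and 24.9%, Oasl2 at 51.5% and 54.9% and Ddx58 at 45.1% and 62.1%. Irf7, too low to be tested, was at 22.7% and 19.1% of Nons. Bst2 was at 98.0% and 127%. Rsad2 was at 51.6% and 77.7%. On day 6, Oasl2 stood the other way, at 216% and 225% of Nons, as did Ddx58 at 180% and 153%, Ifih1 at 168% and 141% and Ifit1 at 193% and 156%. Bst2 was at 141% and 180% on day 6. Rsad2, at 93.1% and 47.7%, was below Nons on both days. Isg15 was at 78.8% and 104% on day 6. These are single libraries, and 1 Nons library is the reference of each day.

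**Figure D4:**
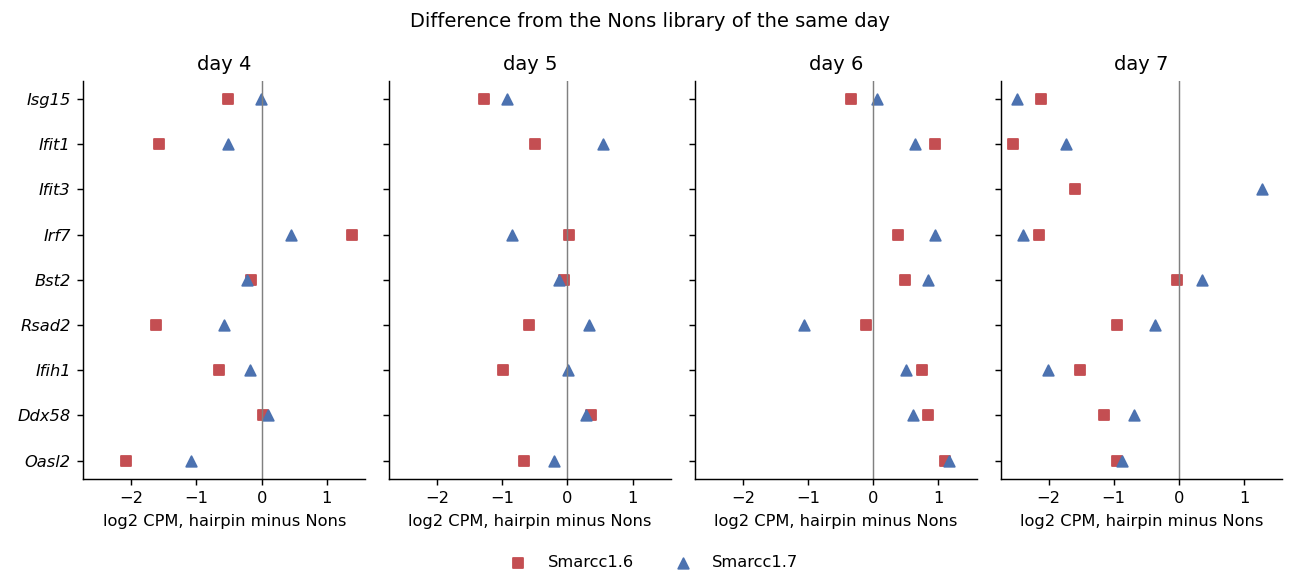
Log2 CPM of each hairpin library minus that of the Nons library of the same day (horizontal axes), for the 9 genes in 4 panels by day. Ifit3 is left out before day 7, where it had at most 1 read. Points lie mostly left of 0 on days 4 and 7 and mostly right of 0 on day 6.

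Whether the difference from Nons varied with the day was tested directly. As a difference in slope over the days, 0 of 7 genes passed, as did 0 of all tested genes (limma), with 1 of 7 at an unadjusted p under 0.05, as were 5.56% of all. That gene was Isg15, whose slope was lower by 0.52 per day (change -0.52 ± 0.23, adjusted p = 0.894). With each day taken on its own, a test added after the data were seen, 3 of 7 genes passed, where 4.11% of all tested genes did and 15 of 79 pathway genes did. Isg15 had a moderated F of 10.9 (adjusted p = 0.0394), Ddx58 one of 13.3 (0.0254) and Oasl2 one of 12.8 (0.0279). The spread in this fit came from the 2 hairpin libraries of each day, and the lone Nons library of a day was assumed to vary likewise. Without day 6, 0 of 7 passed, and the same held without either hairpin library of day 6. Without day 7 or without day 4 only Oasl2 passed, at adjusted p of 0.0319 and 0.0301, and without the Smarcc1.6 library of day 5 likewise (0.0407). Ddx58 also lost its call without the Smarcc1.6 library of day 4, and Isg15 without the Smarcc1.7 library of day 7.

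Of the pathway list, 6 of 79 genes were higher and 6 lower in knockdown than in Nons, where 6.88% and 4.77% of all tested genes were. Higher were Sp110 (change 2.07 ± 0.48, adjusted p = 0.0191), Ifitm1 (1.18 ± 0.22, 0.0079) and Socs3, an inhibitor of cytokine signalling (0.55 ± 0.10, 0.00802), with Ifitm2, Ifitm3 and Pml. Lower were the guanylate binding protein gene Gbp3 (-0.98 ± 0.27, 0.0374), Herc6, the ligase that attaches Isg15 in mice (-0.93 ± 0.22, 0.0195), and Ifit2 (-0.86 ± 0.26, 0.0493), with Ifngr1, Eif2ak2 and H2-K1. With Smarcc1.6 alone the counts were 6 and 6. Sp110, Ifitm1 and Ifitm2 were then at 2.17 ± 0.58, 1.41 ± 0.23 and 0.62 ± 0.11 (limma adjusted p = 0.0414, 0.00617 and 0.00753), and Gbp3, Herc6 and H2-K1 at -1.30 ± 0.26, -1.18 ± 0.21 and -0.84 ± 0.16 (0.0141, 0.00911 and 0.0117). With Smarcc1.7 alone Socs3 was the 1 gene to pass (0.56 ± 0.12, adjusted p = 0.0454).

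Other genes of the response differed in where the day 7 Nons library stood. The inhibitor Usp18, which removes Isg15 from proteins, was at a log2 CPM of 4.69 there, against 2.17 and 1.33 with Smarcc1.6 and Smarcc1.7. It had at most 28 reads in any library before day 7. Mx2, a GTPase against viruses, was at 5.13 against 3.01 and 2.22. The chemokine gene Cxcl10 ran the other way, at a log2 CPM of 3.33 against 4.27 and 4.44. Of the 79 tested pathway genes, 45 lay above both hairpins on day 7 and 14 below both, where 32.5% and 36.7% of all tested genes did.

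Within days, the genes varied together to different degrees. Over the 12 libraries, after the mean of each day was subtracted, the 21 pairs among the 7 tested genes had a median Pearson r of 0.496, from -0.258 (Bst2 with Rsad2) to 0.856 (Isg15 with Ifih1). The libraries of a day share the mean that was subtracted, so these are descriptions. The genes most like the mean of the 7 by the same measure were Trim5 (r = 0.954), Irgm1 (0.948), Trim30a (0.94), Ifi27l1 (0.924) and Kif15 (0.922). Irgm1, Trim30a and Ifi27l1 were on the pathway list.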

How the data were processed

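RNA-seq was analysed for 13 libraries. Libraries were made with the TruSeq RNA kit and sequenced as 75 bp paired-end reads, and the authors aligned the trimmed reads with tophat or hisat2 (TopHat2 2.0.12 in the submitters' processing notes) to mm10 with strain differences masked. Which library had which aligner and the annotation are not given in the sources used here. The authors counted reads per gene in Seqmonk and deposited log2 values of CPM, both alleles together, with 0 reads written as 0.9 reads. From the steps of these log2 values, whole reads were recovered (100% of values between 1 and 200 reads were whole within 0.01 reads), which gave the depths. A gene at 3 reads had a log2 CPM of -4.40 to -2.22. All 13 columns were used.

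Groups and days came from the titles. With 1 library per group and day, days served as replicates. Models were fitted on the log2 CPM of 13406 genes (mean of 0 or more on days 4 to 7) with limma 3.58.1 in R 4.3.3 (lmFit, eBayes with trend, Benjamini-Hochberg over all genes, threshold 0.05, two-sided). The fits were also run on simulated counts drawn independently for each library. Days of a time course are not independent draws, so that run cannot test their use as replicates. No pseudocount was added. Day0 entered no test. Alternatives were filters, log2(CPM + 1), centring, no trend, library weights, thinned reads, days or libraries left out, and day left out of the fit. Counting intervals are exact at 95%. Coordinates, matched by symbol and position for 9 of 9 genes, come from the deposited table (mm10), exon lengths and overlaps from GENCODE M21, promoters from RefSeq. Python 3.11.15, pandas 2.3.3, numpy 2.4.6, scipy 1.17.1 and matplotlib 3.10.9 were used.

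The genes and lists were chosen with earlier results of these data known. Named were the 9 genes, Smarcc1, the 3 largest rises and falls of the pathway list in each comparison, and the 5 genes most like the mean of the tested genes. Usp18, Mx2, Cxcl10, Aif1, Csf1r, Cd68, Ptprc, Lyz2, Emr1, Ifnb1, Ifng, Ifna4 and the genes completing counts of 6 or fewer were named after their values were seen. The same holds for Itgam, Cd14, Pecam1, Tek, Cldn5, Cdh5, Kdr, Col1a1, Thy1, Tdgf1, Pax6, Mixl1 and Nanog.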

Additional observations from a re-analysis of the deposited data

Results flagged for a closer look

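In 4 of 27 sets of 4 libraries (9 genes in 3 groups), 1 day stood far from the others by Dixon's ratio of gap to range (above its 95% critical value). That value is for independent draws from a single distribution, which the days of a time course are not. The count can therefore not be set against chance. Ifit1 in Nons was far higher on day 7 (ratio 0.884), as was Ifit3 in Nons (0.867), though Ifit3 had 26 reads there and at most 1 before. Ddx58 in Nons was far lower on day 6 (0.849), and Ifih1 with Smarcc1.7 was far lower on day 4 (0.836). Libraries of a group differ in day, so a day that stands apart is part of the design.

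The difference between the hairpins and Nons varied with the day for 3 genes by the moderated F test added after the data were seen, at adjusted p of 0.0394 for Isg15, 0.0254 for Ddx58 and 0.0279 for Oasl2. For Isg15 the mean of the hairpins minus Nons was -0.26, -1.10, -0.14 and -2.30 on days 4 to 7 (log2). For Ddx58 it was 0.06, 0.32, 0.73 and -0.92. For Oasl2 it was -1.59, -0.44, 1.14 and -0.91.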

How the results depend on the processing

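Over 1148 recalculations of 49 single-gene results, 0 reversed a call, 16 lost one and 15 gained one. For knockdown against Nons the number of the 7 genes past the threshold was 0, and 1 without the filter on low values and 1 without day 4, from 0 to 2 with 1 library left out. For Smarcc1.6 against Nons it was 0, and 1 with library weights (from 0 to 1 with 1 library left out). For the trend per day it was 5, and 3 when genes needed a mean of 2 or more, which leaves fewer of the genes to test, and 3 without day 4 (from 4 to 5 with 1 library left out). Day 7 against day 4 gave 6, and 4 to 8 over its alternatives. Against Day0 the count was 4, and 2 on the log2(CPM + 1) scale. The interaction by slope gave 0, and 3 with day as a factor. With day as a factor, the 3 became 0 when day 6 was dropped and 1 when either day 4 or day 7 was. On the log2(CPM + 1) scale they became 4, Ifit1 being added. The count lay between 0 and 3 with 1 hairpin library left out, and no Nons library was left out of this test. Where not said otherwise above, the cause was not tested. With day left out of the fit as a block of the replicates, knockdown against Nons gave 0 of 7. Counts over all genes moved more, mostly with the days and libraries kept. For knockdown against Nons 1561 genes passed, 386 without day 5, 287 without day 6, 4 with day left out of the fit, and 57 or 0 with 1 hairpin only (0 to 2003 in all). For Smarcc1.6 against Nons 1247 passed, 178 without day 5, 202 without day 6 and 0 with day left out (0 to 1838). For Smarcc1.7 against Nons 329 passed, 1 without day 5, 1 without day 6, 0 with day left out, 895 with library weights and 1052 without the Nons library of day 4 (0 to 1052). With day as a factor 551 passed, from 110 to 965. Centring each library changed no count of these 9 genes. Depth limits Ifit3, Irf7 and the ligands.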
